A study of Homo sapiens with 8 samples.

Results

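Transcripts of 9 enzymes and partners that write, copy and remove DNA methylation (DNMT1, DNMT3A, DNMT3B, DNMT3L, UHRF1, TET1, TET2, TET3 and TDG) were followed in small and large human embryonic stem cells. They were found as the probe sets that the array annotation assigns to 1 of these symbols, 17 of the 54675 probe sets on the array. Of these, 13 passed a filter on dim probe sets and were tested, and they cover 8 of the 9 genes. The gene without a tested probe set is DNMT3L. Small cells and large cells were fractions of 1 established line, H1, grown over irradiated mouse embryonic fibroblasts and collected by forward and side scatter on a flow cytometer. Neither fraction carried a genetic change or a treatment. Each fraction was sorted 4 times in repeats described as independent, with a 1-colour array for each sort. Scatter gates are set on size and granularity and not on a marker, and the labels give no gate limits, cell cycle profile or time between sorts.

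Methyl groups on cytosine, mostly where a guanine follows, are placed on unmarked DNA by DNMT3A and DNMT3B, with the catalytically inactive DNMT3L as a cofactor. After replication UHRF1 binds the half-methylated sites and brings in DNMT1, which copies the mark to the new strand. The TET dioxygenases oxidise methylated cytosine, and the glycosylase TDG cuts out the most oxidised forms so that base excision repair can restore an unmarked cytosine. Pluripotent cells are known for high DNMT3B and TET1 expression.

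The comparison asked whether small stem cells differ from large ones in these transcripts. No difference passed the test: 0 of 8 tested enzymes reached an adjusted p under 0.05 in limma, where 1.99% of all 14726 genes did, and 0 had an unadjusted p under 0.05, where 16.5% of all genes did. The de novo enzyme DNMT3A had the most positive log2 difference, 0.24 ± 0.15 (moderated SE, n = 4 per group), and TET2 the most negative, -0.47 ± 0.32. All 3 TET genes had negative differences, of which TET1 at -0.29 ± 0.16 had the smallest p (adjusted p = 0.393 in limma). A second TET1 probe set had 4 small values that were all below the 4 large values, a log2 difference of -0.52 ± 0.22 that also missed the threshold (adjusted p = 0.292 over all probe sets in limma). Values are normalized log2 intensities, so 1 unit is a 2-fold difference, and levels of different probe sets are not set against each other because probes differ in brightness.

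For 7 of the 8 tested genes the 95% interval of the difference lay within 2-fold in either direction, TET2 being the exception. The median difference of the 8 genes was -0.13, against 0.05 over all genes tested. Of the 8, 2 were above 0 and 6 below. In 0 of the 8 genes were the small and large values separated without overlap, which was the case for 10% of all genes. Equal masses of RNA entered each hybridisation and the arrays were then put on a common scale, which makes these relative levels, not amounts per cell. In bulk RNA of this kind, fewer cells of a type and less RNA per cell cannot be told apart.

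**Figure D1:**
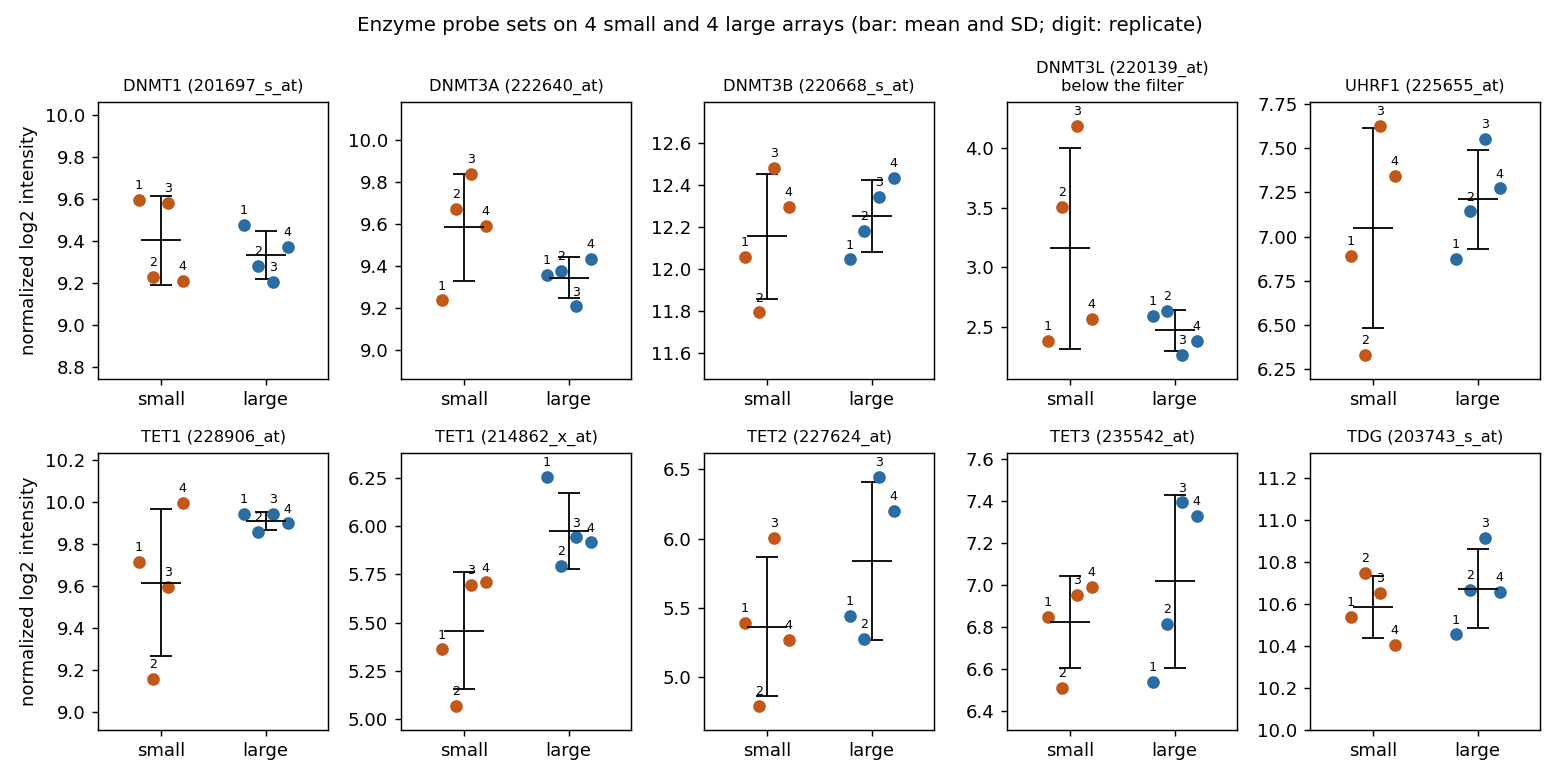
Normalized log2 intensity (vertical axis) of 9 enzymes on the 4 small and 4 large arrays, with the second TET1 probe set beside the first; points are arrays, digits their replicate number, and bars the mean and SD. Groups overlap in each panel except that of the second TET1 probe set, where small arrays lie between 5.07 and 5.71 and large arrays between 5.79 and 6.26.

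Among the writers, DNMT1, the maintenance methyltransferase, has a single probe set. It read 9.60, 9.23, 9.58 and 9.21 in small cells, against 9.48, 9.28, 9.21 and 9.37 in large cells. Small arrays 1 and 3 were the highest of all and small arrays 2 and 4 lay at the level of the lowest large array, so the groups overlap. The log2 difference was 0.07 ± 0.14 SE, with a 95% interval from -0.23 to 0.38 (adjusted p = 0.855 in limma).

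DNMT3A has 3 probe sets, all tested. The brightest read 9.24, 9.67, 9.84 and 9.59 in small cells, against 9.36, 9.38, 9.21 and 9.44 in large cells. Small arrays 2 to 4 were above each large array, while small array 1 was below 3 of them. Its difference of 0.24 ± 0.15 SE, with an interval from -0.07 to 0.56, was 1.18-fold in size (adjusted p = 0.447 in limma). The other probe sets of DNMT3A differed from it and from each other: 218457_s_at was at 0.42 ± 0.28 and 244428_at at -0.06 ± 0.22. For 218457_s_at much of the difference lay in 1 array, large array 4, which read 6.83 while large arrays 1 to 3 read 8.18, 8.34 and 7.68, and the small arrays 7.85 to 8.35. Without large array 4 its difference was 0.11. The brightest probe set was at 0.37 with median centring and also with 75th percentile scaling. Under 75th percentile scaling its unadjusted p was 0.038 in limma (adjusted p = 0.251).

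DNMT3B, a de novo enzyme abundant in pluripotent cells, read 12.06, 11.79, 12.48 and 12.30 in small cells, against 12.05, 12.18, 12.35 and 12.43 in large cells. The lowest and the highest value both belong to small arrays, so the large group lies within the small one. The difference was -0.09 ± 0.14 SE, with an interval from -0.40 to 0.21 (adjusted p = 0.794 in limma). It changed sign without small array 2, to 0.03, and with each array centred on its median or scaled to its 75th percentile, to 0.07 in either case.

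DNMT3L was dim, with a mean of 2.82 that lay below the filter of 3.62, and it was not tested. Its probe set read 2.39, 3.51, 4.19 and 2.57 in small cells, against 2.60, 2.64, 2.27 and 2.39 in large cells. Small arrays 2 and 3 stood above the other 6 arrays. On the deposited scale these values are 2.93, 7.66, 21.5 and 3.59 intensity units in small cells, against 3.33, 4.31, 3.88 and 3.99 in large cells.

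UHRF1, which reads half-methylated DNA and recruits DNMT1, had 6.89, 6.33, 7.63 and 7.34 in small cells, against 6.87, 7.14, 7.55 and 7.27 in large cells. Again the small arrays held both the lowest and the highest value. The difference was -0.16 ± 0.26 SE, with an interval from -0.72 to 0.39 (adjusted p = 0.81 in limma), and it was 0.08 without small array 2. UHRF1 and DNMT1 are known to be transcribed most around S phase, so the level of 15 S phase genes was set beside them. Their summed level on the log2 scale was 13.48 ± 0.12 (SD, n = 4) in small cells and 13.48 ± 0.12 (SD, n = 4) in large cells (exact two-sided permutation p = 1). None of the 15 passed (0 of 15 in limma), where 1.99% of all genes did. At an unadjusted p under 0.05 there were 3, against 16.5% of all genes. Of these 2 had positive differences and 1 a negative one, MCM3 at -0.41 ± 0.19 SE. The 15 genes ran from -0.41 to 0.62, with a median of 0.05. Those with the smallest p were the replication factors GINS2 at 0.43 ± 0.13 SE and CDT1 at 0.62 ± 0.22 (adjusted p = 0.117 and 0.182 in limma). Other tested GINS2 probe sets were at -0.62 (1557595_at) and 0.03 (243136_at), and that of CDT1 at 0.44. Over the alternatives GINS2 ran from -0.05 to 0.56. The summed level is carried by the bright genes and lets opposing differences cancel, so it does not measure the share of cells in S phase. The part of the cell cycle in the UHRF1 and DNMT1 values was not tested.

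Turning to the erasers, TET1, the TET enzyme best known from embryonic stem cells, has 2 tested probe sets. The brighter read 9.72, 9.16, 9.60 and 9.99 in small cells, against 9.94, 9.86, 9.94 and 9.90 in large cells. Large arrays lay close together, with an SD of 0.04 (n = 4), while small arrays had an SD of 0.35 (n = 4) and held both the lowest and the highest reading. The difference of -0.29 ± 0.16 SE had an interval from -0.64 to 0.05. With 1 array left out it ran from -0.42 (without small array 4) to -0.14 (without small array 2), and adjusted p stayed at 0.222 or above in limma. Median centring and 75th percentile scaling each put it at -0.16.

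The dimmer TET1 probe set, 214862_x_at, read 5.36, 5.07, 5.70 and 5.71 in small cells, against 6.26, 5.79, 5.94 and 5.92 in large cells. No small value reached the lowest large one. This was the 1 of 13 tested probe sets without overlap and with an unadjusted p under 0.05. Over all probe sets 9.34% had no overlap and 15.3% an unadjusted p under 0.05, so 1 of 13 is near the background. Of all probe sets 1.5% passed after adjustment, and 0 of the 13 did. The _x_at ending marks a probe set that may bind other transcripts too. In every alternative setting that kept this probe set its difference was negative, from -0.65 on the deposited scaling to -0.39 without small array 2, and adjusted p did not go under 0.181.

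TET2 is read by 3 probe sets, of which 1 passed the filter. It read 5.39, 4.79, 6.01 and 5.27 in small cells, against 5.44, 5.27, 6.45 and 6.20 in large cells. Large arrays 3 and 4 were above each small array, and large arrays 1 and 2 lay among the small values. The difference, -0.47 ± 0.32 SE, had the widest interval of the 8 genes, from -1.16 to 0.21 (adjusted p = 0.499 in limma). Without large array 3 it was -0.27 and without large array 1 it was -0.69. The untested probe sets averaged higher in small cells, against the direction of the tested one, with wide spreads: 1569385_s_at averaged 3.44 ± 1.28 (SD, n = 4) in small cells and 2.98 ± 1.15 (SD, n = 4) in large cells, and 235461_at 3.72 ± 1.02 (SD, n = 4) in small cells and 3.22 ± 0.76 (SD, n = 4) in large cells.

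TET3, the TET enzyme known for oxidising the paternal genome in the mouse zygote, read 6.85, 6.51, 6.95 and 6.99 in small cells, against 6.54, 6.81, 7.39 and 7.33 in large cells. Large arrays 3 and 4 again stood above the small arrays. The difference was -0.19 ± 0.22 SE, with an interval from -0.66 to 0.28 (adjusted p = 0.721 in limma). A further tested probe set, 214754_at, was at -0.06 ± 0.29, and the third, 1554641_a_at, was below the filter. That untested probe set averaged higher in small cells, at 3.33 ± 0.68 (SD, n = 4), against 2.69 ± 1.00 (SD, n = 4) in large cells.

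TDG had 10.54, 10.75, 10.65 and 10.41 in small cells, against 10.45, 10.67, 10.91 and 10.65 in large cells. Values of both groups were interleaved. The difference was -0.09 ± 0.13 SE, with an interval from -0.36 to 0.19 (adjusted p = 0.79 in limma), and the other tested TDG probe set was at 0.01 ± 0.18. The sign of the difference of -0.09 depended on the scaling, since median centring and 75th percentile scaling each put it at 0.11. Under both of these scalings the other probe set was at 0.04.

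**Figure D2:**
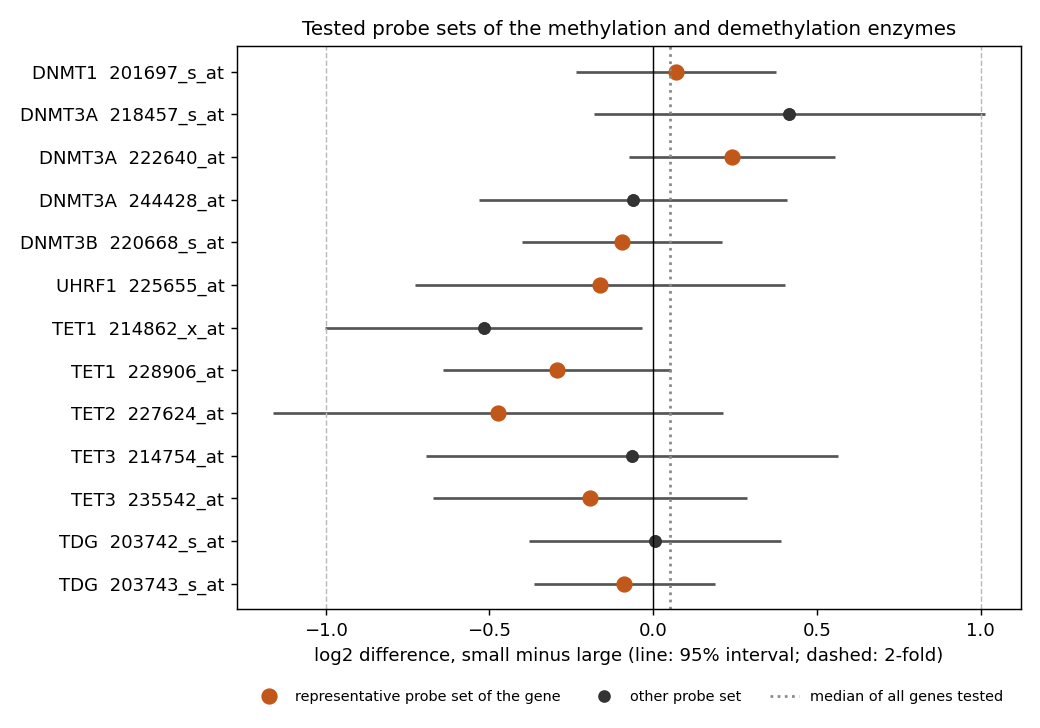
Log2 difference (small minus large, horizontal axis) of the 13 tested probe sets, with lines for 95% intervals, dashed lines at 2-fold and a dotted line at the median of all genes. Each interval crosses 0 except that of the second TET1 probe set, and 10 of the 13 lie within 2-fold.

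Over the 8 arrays some of these transcripts varied together. Of 28 pairs of enzymes, 1 had a correlation that passed after Benjamini-Hochberg adjustment over the pairs: DNMT3B with UHRF1, at Pearson r = 0.955 (exact permutation p = 0.000471, adjusted p = 0.0132, n = 8). Spearman's rho was 0.929 (exact permutation p = 0.00223, adjusted p = 0.0625), which missed the threshold. Without small arrays 2 and 3, the farthest from the DNMT3B median, r was 0.86, and with the group means removed it was 0.953. UHRF1 ranked 9 of 14725 other genes by its correlation with DNMT3B, TET2 ranked 324 and TET3 ranked 372, at r = 0.815 and r = 0.803. The other enzymes ranked lower. TET1 was at 1951, with r = 0.57, and DNMT1, DNMT3A and TDG at 6451, 6483 and 6712, with r = 0.114, 0.111 and 0.089.

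The relation of DNMT3B and UHRF1 was lost in 1 of the scalings run. Array brightness is taken as the log2 75th percentile of the deposited intensities, which ran from 5.51 to 6.70 in small cells and from 5.39 to 6.73 in large cells. Both genes had a positive correlation with it, at r = 0.785 for DNMT3B and r = 0.791 for UHRF1 (exact permutation p = 0.0228 and 0.018, both adjusted p = 0.0914 over 16 relations, n = 8). So did TET2 at r = 0.864 and TET3 at r = 0.791 (exact permutation p = 0.0074 and 0.022, both adjusted p = 0.0914). None of the 16 relations passed the threshold. Of all genes, 3.7% had an r with brightness at least that of DNMT3B, and 3.5% at least that of UHRF1. TDG was at r = 0.615, and DNMT1, DNMT3A and TET1 were at 0.113, 0.024 and 0.164. The Spearman values were 0.833 for DNMT3B and 0.81 for UHRF1 (exact permutation p = 0.0154 and 0.0218, both adjusted p = 0.147). Without small array 3 and large array 3, the brightest, r was 0.722 for DNMT3B and 0.565 for UHRF1. After a line on brightness was removed from each gene, DNMT3B and UHRF1 correlated at r = 0.881. With each array scaled to its 75th percentile, r between DNMT3B and UHRF1 was 0.015, and 0 of the 28 pairs passed. Median centring let 9 of 28 pairs pass and the deposited scaling all 28, each with a positive r. Under 75th percentile scaling UHRF1 had r = 0.849 with brightness, and DNMT3B was at -0.354. The part of brightness in these correlations was not tested further.

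**Figure D3:**
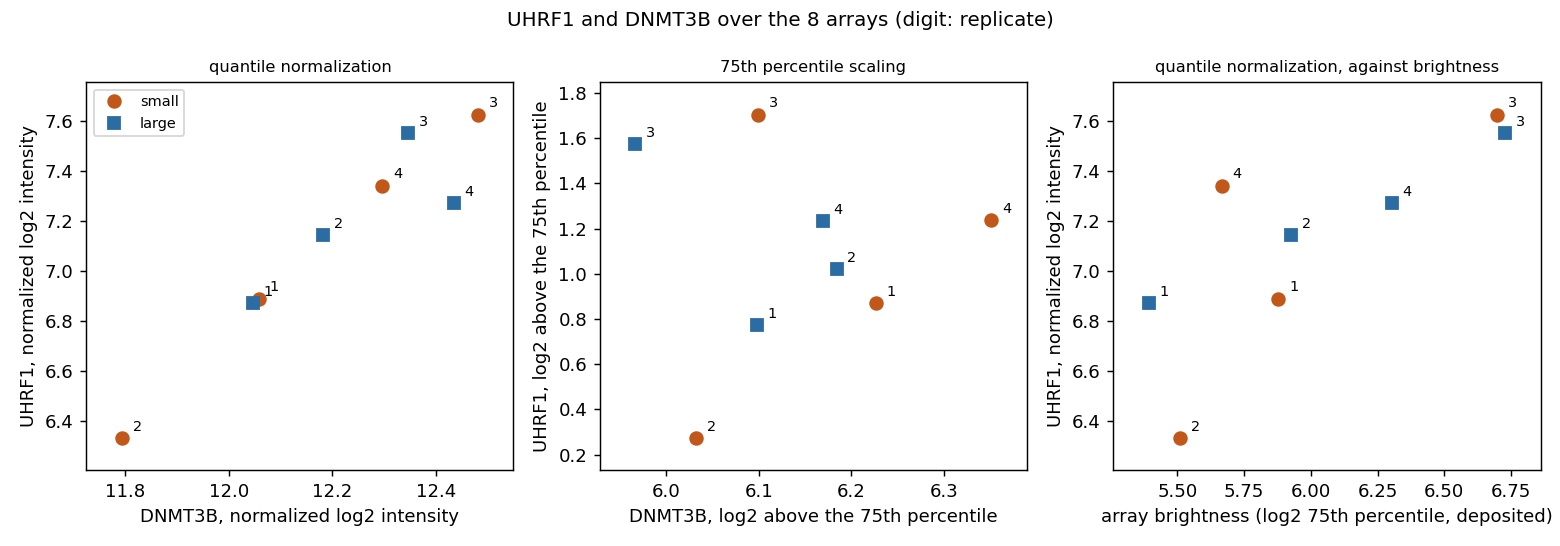
UHRF1 against DNMT3B over the 8 arrays after quantile normalization (left, log2) and after 75th percentile scaling (middle, log2), and UHRF1 against array brightness (right). Circles are small and squares large arrays, with replicate numbers; the left panel has r = 0.955 and the middle panel r = 0.015.

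The genes most like DNMT3B over the 8 arrays were NEURL1B (r = 0.985), ZNF512B (r = 0.974) and MAP3K1 (r = 0.966), and with 75th percentile scaling their r was -0.099, 0.094 and -0.137. For DNMT1 they were SLC35H1, LCOR and CUL9, at r = 0.957, 0.952 and 0.95, and 0.927, 0.948 and 0.892 with 75th percentile scaling. For TET1 they were ARHGAP25, CPS1 and FBN3, at r = 0.97, 0.967 and 0.965, and 0.732, 0.912 and 0.893 with that scaling. These values describe 8 arrays that share their scaling, picked as the highest among all genes.

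Genes around the enzymes were taken from 4 lists with 58 members, of which 50 were tested. None passed (0 of 50 in limma), where 1.99% of all genes did. At an unadjusted p under 0.05 there were 7 (14%), 4 with positive and 3 with negative differences, against 16.5% of all genes, and 3 (6%) had no overlap, against 10% of all genes. Their median difference was 0.06, against 0.05 over all genes.

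Among 12 tested partners of maintenance methylation the median difference was 0.03. HELLS, a chromatin remodeller needed for DNA methylation in the mouse, read 9.93, 9.07, 9.71 and 9.39 in small cells, against 9.82, 9.92, 10.5 and 10.3 in large cells. Small array 1 lay within the large group and the other small arrays lay below it. The difference was -0.61 ± 0.20 SE (adjusted p = 0.137 in limma), and the probe sets split, with 220085_at at -0.52 while 223556_at was at 0.10 and 227349_at at 0.07. The histone methyltransferase gene EHMT1 was at 0.19 ± 0.14 (adjusted p = 0.526).

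Of 9 tested methyl-CpG binding proteins, with a median of 0.05, the glycosylase gene MBD4 had the smallest p. MBD4 removes thymine left by deamination of methylated cytosine, and it read 9.70, 9.37, 10.2 and 9.34 in small cells, against 9.42, 8.68, 8.77 and 8.86 in large cells. Large array 1 lay among the small values and the other large arrays below them. The difference was 0.71 ± 0.21 SE, 1.64-fold (adjusted p = 0.0991 in limma), and without large array 1 it passed. Of the other MBD4 probe sets 2 had smaller positive differences, 0.23 and 0.14, and 1 a negative one, -0.55, and none of these passed. ZBTB38, a zinc finger reader of methylated DNA, was at 0.43 ± 0.17 with no overlap between groups (adjusted p = 0.215). Its other tested probe sets were at -0.14, 0.10 and 0.74, and in each of them the groups overlapped.

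The 17 tested demethylation cofactors and base excision repair genes had a median of 0.23. OGT, the transferase for N-acetylglucosamine that binds TET proteins, read 9.73, 9.30, 9.89 and 9.40 in small cells, against 10.2, 9.76, 10.5 and 10.1 in large cells. Large array 2 lay within the small group. OGT was at -0.57 ± 0.18 SE (adjusted p = 0.126 in limma), with its other probe sets between -0.51 and 0.19, and it passed in 1 of 26 alternatives, the fit with the replicate number as a block (adjusted p = 0.0147). The growth arrest gene GADD45G was at 0.54 ± 0.20 without overlap (adjusted p = 0.206). For 12 tested genes of the S-adenosylmethionine cycle, which supplies the methyl group, the median was -0.03. Here MAT2B, a regulatory subunit of the enzyme that makes S-adenosylmethionine, was at -0.44 ± 0.16 (adjusted p = 0.187) and MTRR, a methionine synthase reductase, at -0.21 ± 0.15 (adjusted p = 0.515).

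**Figure D4:**
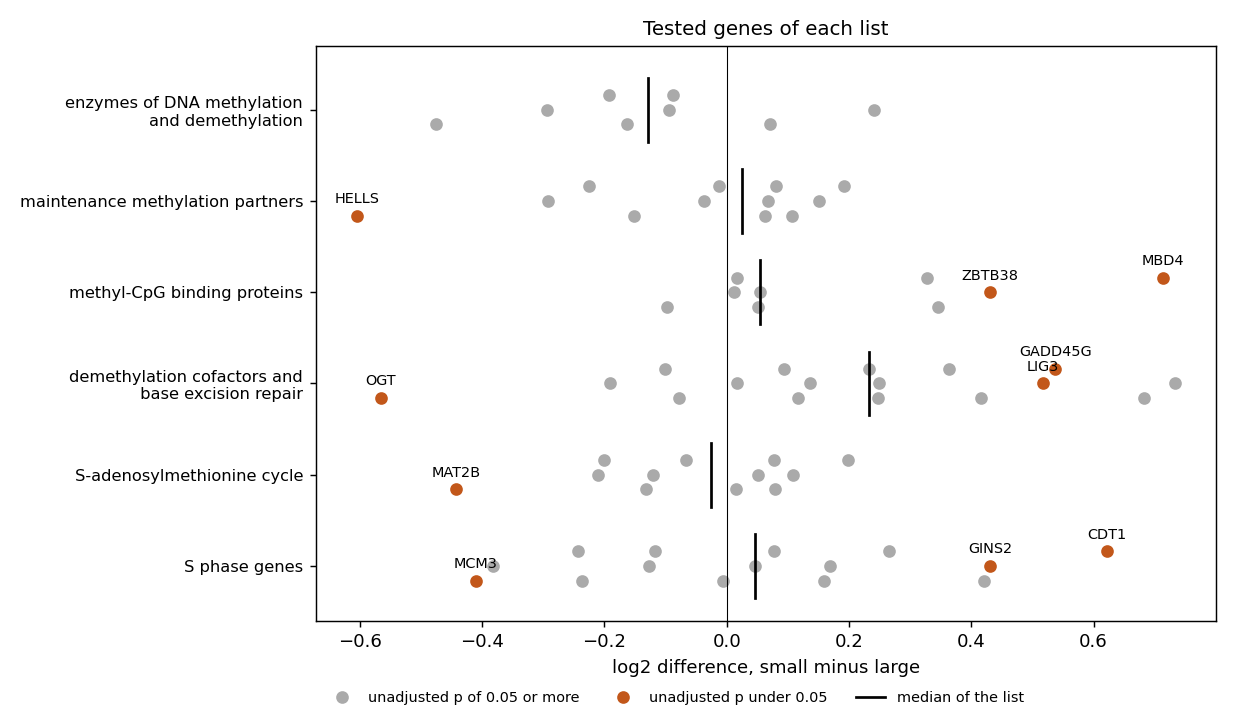
Log2 difference (small minus large, horizontal axis) of each tested gene, by list; points are genes, coloured points have an unadjusted p under 0.05 and vertical bars are list medians. The 8 enzymes lie between -0.47 and 0.24, with a median of -0.13.

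For the identity of the cells, 10 pluripotency markers were tested, of which 1 passed, where 1.99% of all genes did. NANOG was at -0.05 ± 0.10 and SOX2 at -0.17 ± 0.12 (adjusted p = 0.847 and 0.505 in limma), while POU5F1 was not analysed here. In these probe sets NANOG lay between 10.58 and 10.81 and SOX2 between 10.23 and 10.56 over the 8 arrays. Other tested SOX2 probe sets were at -0.48 (213721_at), -0.76 (213722_at) and 0.26 (214178_s_at). That of NANOG was at 0.28 (231079_at), and none of these passed. The surface sialomucin PODXL was lower in small cells, at 10.59, 10.46, 11.09 and 10.72, against 11.48, 11.49, 11.91 and 11.90 in large cells (-0.98 ± 0.15 SE, adjusted p = 0.00754). The summed level of these markers on the log2 scale was 13.99 ± 0.04 (SD, n = 4) in small cells and 14.21 ± 0.10 (SD, n = 4) in large cells (exact two-sided permutation p = 0.0286, the smallest that 70 assignments can give), and on the deposited scaling the p was 0.714. PODXL made up much of this difference of -0.22: without it, a setting chosen after seeing the data, the summed level differed by -0.10, with the same p. The median difference of the 10 markers was -0.08. TERT at 0.74 ± 0.42 SE and ZFP42 at 0.08 ± 0.14 had positive differences (adjusted p = 0.413 and 0.813 in limma), and the others negative ones. The summed level is carried by the bright markers, and TERT is dim. These markers were chosen with earlier results of these data known, which limits what the p of the sum can show. Of 8 tested fibroblast markers 0 passed (1 at an unadjusted p under 0.05, against 16.5% of all genes). PDGFRB and FAP were below the filter. VIM, an intermediate filament gene, was at 1.12 ± 0.30 and COL1A1 at -0.59 ± 0.28 (adjusted p = 0.0723 and 0.31). VIM read 10.44, 10.97, 10.37 and 10.50 in small cells, against 9.55, 10.32, 8.41 and 9.53 in large cells, with no overlap. It missed the threshold in the main setting but passed in 5 of 25 alternatives: with 75th percentile scaling, the replicate block, array weights and the brightness covariate, and without large array 2, where it was at 1.41 (adjusted p = 0.0263 in limma). COL1A1 passed with the brightness covariate (-0.72, adjusted p = 0.0254 in limma). In the main setting its other tested probe sets split, with 202310_s_at at -0.41, 202311_s_at at -0.09 and 217430_x_at at 0.31. The fibroblast list had summed levels from 11.21 to 11.96 in small cells and 10.72 to 11.96 in large cells. Of 10 tested markers of differentiated lineages 0 passed (1 at an unadjusted p under 0.05, against 16.5% of all genes). MIXL1, FOXA2, GATA4, CDX2 and CGA were below the filter. PAX6, a neural transcription factor, was at 1.77 ± 0.52 and GATA6 at 0.68 ± 0.32 (adjusted p = 0.106 and 0.308). PAX6 read 5.87, 5.46, 5.43 and 5.13 in small cells, against 5.63, 3.22, 2.74 and 3.24 in large cells, so large array 1 lay among the small values and the other large arrays below them. It passed in 4 of 24 alternatives, and without large array 1 it was at 2.41 (adjusted p = 0.00794 in limma). Large arrays 2 to 4 read below the filter of 3.62, so PAX6 was tested only through its higher values on the other arrays. The size of its difference rests on readings near the floor. The lineage list had summed levels from 8.54 to 9.40 in small cells and 8.54 to 9.34 in large cells. The part of these cells in the enzyme values was not tested. For RNA quality, the log2 signal of GAPDH and ACTB at the 3 prime end minus that at the 5 prime end, averaged over both genes, was 2.37 ± 0.30 (SD, n = 4) in small cells and 2.12 ± 0.53 (SD, n = 4) in large cells (exact two-sided permutation p = 0.4).

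**Figure D5:**
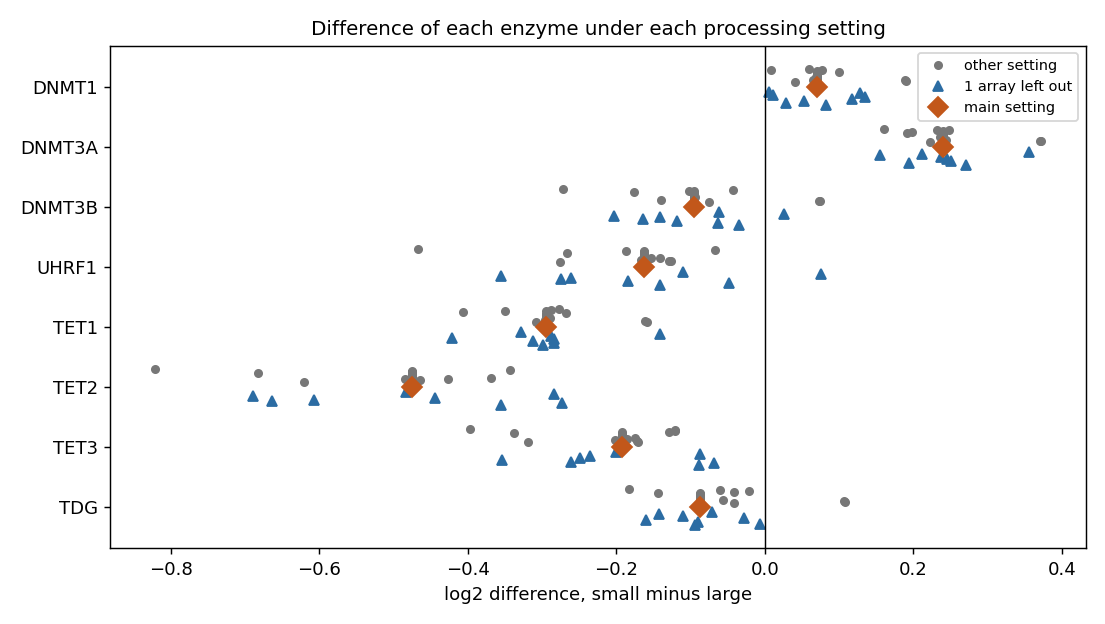
Log2 difference (small minus large, horizontal axis) of the 8 tested enzymes in the main setting (diamonds), in other settings (circles) and with 1 array left out (triangles). DNMT1 and DNMT3A stay above 0 and TET1, TET2 and TET3 below it in each setting run, while DNMT3B, UHRF1 and TDG cross 0, and no point passed the test.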

How the data were processed

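Total RNA of the sorted fractions was labelled with biotin and hybridised to Affymetrix Human Genome arrays, per the labels' protocols. Per the series design text, the authors read scans with GeneChip Operating Software and imported them into Rosetta Resolver (version 7.1). Deposited values are linear intensities, 1 column for each array. Their background correction and scaling are not given in the sources used here. On the log2 scale the 75th percentile varied by 1.33 between arrays.

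Groups and replicate numbers came from the sample titles. A pseudocount of 1.81, which is the 10th percentile, was added to the intensities, which were put on the log2 scale and quantile normalized, so differences of dim probe sets are understated. Without 62 control probe sets, those with a mean above the 40th percentile (3.62) were tested, 32768 in all. Gene names came from GEO's platform annotation, updated by gene ID; those with more than 1 symbol were given no name. Each of 14726 genes was read from its brightest tested probe set.

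Small minus large was fitted with limma 3.58.1 in R 4.3.3 (lmFit, eBayes with trend, two-sided, Benjamini-Hochberg over all genes, or over all probe sets where probe sets are named). The fit was tested on simulated data. The number of arrays limits precision; the median SE over genes was 0.24. P-values measure the spread between these sorts. Single values were compared by exact permutation. Besides the enzymes, the text names from each list up to 4 called genes, or 2 with the smallest p, and the 3 genes most correlated with DNMT3B, DNMT1 and TET1; the rule added NANOG, SOX2 and POU5F1. Members and lists were chosen with earlier results of these data known. In all 26 alternatives were run. The labels do not say whether equally numbered sorts shared a culture or a day, and the numbers were not taken to pair them. Correlations between enzymes and with brightness were added after the data were seen. No arrays held identical values. Scan dates were not used here.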

Additional observations from a re-analysis of the deposited data

Results flagged for a closer look

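A TET3 probe set, 214754_at, had 1 array far from the others in either group. Small array 3 read 4.18, while the other small arrays lay between 4.97 and 5.04. Large array 1 read 4.43, while the other large arrays lay between 5.003 and 5.02. Of 34 groups of 4 values looked at (17 probe sets in 2 groups), these were the 2 that stood out, and chance alone flags about 5% of such groups. The difference of this probe set was -0.06, and it was 0.14 without small array 3, -0.21 without large array 1 and -0.004 without both.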

How the results depend on the processing

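No enzyme passed the test in any of the 26 alternatives or at a threshold of 0.1, and the lowest adjusted p was 0.169. Of 205 differences of the 8 genes under these alternatives 199 kept their sign, and the other 6 were DNMT3B (0.07 with median centring, 0.07 with 75th percentile scaling, 0.03 without small array 2), UHRF1 (0.08 without small array 2) and TDG (0.11 with median centring, 0.11 with 75th percentile scaling). The background count of 293 genes was less stable. In limma it fell to 0 in 3 settings: without a variance trend (2234 genes had an unadjusted p under 0.05), with median centring (1575 genes) and on the deposited scaling (497 genes). It was 824 with array weights, 190 without _x_at and _s_at probe sets, 166 with the 3 prime to 5 prime covariate, 551 with brightness as a covariate, 774 without large array 1 and small array 3 together, and 593 at a threshold of 0.1. Leaving out 1 array gave between 62 genes, when small array 1 was dropped, and 554, when large array 1 was. It was 81 without small array 2, and 157, 79 and 74 without large arrays 2, 3 and 4. With the replicate number as a block it was 753, and 0 enzymes passed. Same-numbered arrays correlated at 0.114, 0.126, 0.234 and 0.014 once group means were removed; small arrays 1 to 3 correlated best with their own number and small array 4 did not. The fibroblast marker COL3A1 followed the replicate numbers. It read 7.65, 8.55, 6.73 and 4.91 in small cells, against 7.97, 8.39, 6.28 and 5.10 in large cells. Whether equally numbered sorts shared a source was not tested. The median of all genes was 0.05 in the main setting and -0.05 on the deposited scaling. Of the other genes named, PODXL kept its call in 23 of 26 alternatives and lost it in the 3 where no gene passed. The block let MBD4, VIM, PAX6 and OGT pass, array weights MBD4, VIM, PAX6, HELLS, MAT2B and GINS2, and brightness as a covariate VIM and COL1A1. MBD4 and PAX6 passed without large array 1, alone or with small array 3, and VIM without large array 2 and with 75th percentile scaling. MBD4 was at -0.55 without _x_at and _s_at probe sets. The correlation of DNMT3B and UHRF1, with settings chosen after seeing the data, ran from 0.904 to 0.992 with 1 array left out, and was 0.977 on the deposited scaling, 0.869 after median centring and 0.015 after 75th percentile scaling. Causes were not tested.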
